A study of Homo sapiens with 6 samples.

Results

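The lysosomal cathepsins are the proteases that degrade proteins in lysosomes, and 9 of their genes (CTSA, CTSB, CTSC, CTSD, CTSH, CTSL, CTSO, CTSW and CTSZ) were examined together with CST3. CST3 encodes cystatin C, a secreted inhibitor of cathepsins of the papain family. The 10 genes were taken by symbol, as paired with the Ensembl identifiers by GENCODE release 29, out of 32364 genes in the deposited FPKM table. All 10 passed the minimum mean of 0.1 FPKM and were tested. Kasumi-1 is an acute myeloid leukemia line with the t(8;21) translocation, and all 6 libraries come from this line. The control group holds 3 libraries of cells incubated with the control for 48 h, which was the solvent dimethyl sulfoxide at the level of the I13 solution. The I13 group holds 3 libraries of cells incubated for 48 h with I13 at 0.5 µM, a histone deacetylase inhibitor that contains indole-3-butyric acid. Whether the 3 libraries of a group came from separate cultures is not given in the labels, so the p-values measure only the spread between these libraries.

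Cathepsins are made as inactive precursors, carried to the lysosome by mannose 6-phosphate receptors and activated in its acidic interior. Most belong to the papain family of cysteine proteases, which cystatins inhibit, while CTSD is an aspartic protease and CTSA a serine carboxypeptidase. Myeloid cells are rich in lysosomes and in the related azurophil granules, and CTSC removes a dipeptide from the precursors of the granule serine proteases, which activates them. Transcription factors of the MiT family, such as TFEB, drive many lysosomal genes through a DNA element that contains CACGTG.

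Promoter sequences are shown for CTSA and CTSD, which hold the letters CACGTG, and for CTSH and CST3, whose libraries did not overlap between the groups. They were taken from the 250 bases before the transcription start given by RefSeq (GRCh38.p14) and are read 5′ to 3′ on the strand of the gene. GENCODE annotates exons of longer transcripts within these windows, over all 250 bases for CTSA and over 65, 48 and 71 bases next to the start for CTSD, CTSH and CST3. Shown are therefore the bases upstream of those exons and, for CACGTG, sites of 30 bases, which lie in such exons. Capitals mark CACGTG and the GC box GGGCGG or its complement CCGCCC, copies of which overlap in CTSD.

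CTSA site, chr20:45891290-45891319, plus strand: tgtCACGTGgcgccggagttCACGTGactc
CTSD site, chr11:1763957-1763986, minus strand: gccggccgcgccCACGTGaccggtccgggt
CTSD upstream, chr11:1763993-1764177, minus strand: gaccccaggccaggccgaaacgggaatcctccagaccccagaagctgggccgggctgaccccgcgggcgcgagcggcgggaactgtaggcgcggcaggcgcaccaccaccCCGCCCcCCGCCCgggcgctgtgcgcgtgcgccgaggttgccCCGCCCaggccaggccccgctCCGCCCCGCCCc
CTSH upstream, chr15:78945095-78945296, minus strand: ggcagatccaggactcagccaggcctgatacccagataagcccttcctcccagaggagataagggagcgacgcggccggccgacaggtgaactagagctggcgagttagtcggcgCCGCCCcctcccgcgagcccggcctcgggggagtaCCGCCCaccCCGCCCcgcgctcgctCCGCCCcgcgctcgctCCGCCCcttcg
CST3 upstream, chr20:23638027-23638205, minus strand: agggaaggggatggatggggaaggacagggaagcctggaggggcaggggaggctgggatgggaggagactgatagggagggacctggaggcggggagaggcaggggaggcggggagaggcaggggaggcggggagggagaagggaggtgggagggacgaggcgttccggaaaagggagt

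The set of RefSeq promoters used here held 7 of the 10 genes (CTSA, CTSC, CTSD, CTSH, CTSL, CTSZ and CST3). The letters CACGTG were found in 2 of these, CTSA with copies that begin 42 and 25 bases before the start and CTSD with a copy that begins 47 bases before it. Of all 35097 promoters of this length, 6.34% held CACGTG. All 7 held the GC box, on either strand, against 42.6% of all promoters, and 0 of 7 held TATAAA (10.7% of all) or TGTGGT, the core of the RUNX motif (10.98% of all), counting both strands. In CST3 and CTSA the GC box lies in bases of the window that are not shown above. CCAAT was found in CTSC and CTSL, against 32.0% of all promoters. Their G and C content was between 58.4% in CTSC and 81.2% in CTSZ, with a median of 58% over all promoters. These matches describe letters in the window and not bound sites.

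Differences between the groups were tested as log2(FPKM + 0.1) with limma over the 18726 genes that averaged 0.1 FPKM or more, two-sided and with Benjamini-Hochberg adjustment. Calling a gene took an adjusted p under 0.05 together with a log2 fold change of 0.58 or more in either direction. None of the 10 genes was called, where 0 of all genes tested (0%) were called by limma and 6 by limma's voom on fragments recovered from the FPKM values. At an unadjusted p under 0.05, limma found 1 of the 10 genes, CST3, against 963 genes (5.14%) of all tested. By voom there were 2 of the 9 genes with enough fragments, CST3 and CTSH, against 5.4% of all genes. By fold change, 7 genes leaned towards I13 and 3 towards the control, and the median log2 value was 0.069, beside 0.006 over all genes tested.

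The depth, recovered from whole fragments, ranged from 16566742 to 17221345 fragments per control library and from 15281052 to 16682551 per I13 library. Over the 4133 genes that averaged 10 FPKM or more, control replicate 3 and I13 replicate 2 stood apart from the other 4 libraries on the first principal component. It carried 43.3% of the variance, and no label names a batch. The second component, with 20.5% of the variance, separated the groups. On it the control libraries lay between 2.28 and 3.58 and the I13 libraries between -3.15 and -2.50. Of 6 markers of myeloid blasts, RUNX1T1, KIT, CD34, MPO, CD33 and ANPEP were all above 10 FPKM on average. Among the markers of other cells, CD3G, CD8B, KLRD1, FCGR3A, CD163, COL1A1, COL1A2 and COL3A1 were listed at 0 in every library, and the summed FPKM of 6 T cell markers ranged from 1.73 to 2.03 in control and from 1.46 to 2.12 in I13 samples. EPCAM, an epithelial adhesion gene, was at 23.8 ± 2.86 FPKM (SD, n = 3) in control and 23.9 ± 2.04 FPKM (SD, n = 3) in I13 libraries. Of the T cell, NK cell and B cell lists the most abundant genes were CD8A (mean 1.53 FPKM), NKG7 (0.633 FPKM) and CD79A (1.66 FPKM). CD3D (0.338 ± 0.0339 FPKM in control and 0.135 ± 0.00592 FPKM in I13 samples, SD, n = 3 each) and PAX5 (0.561 ± 0.163 and 0.949 ± 0.0880 FPKM) had an unadjusted p under 0.05 by limma, with an adjusted p of 0.890 each. The CD3D values rest on 5, 6 and 5 fragments in the control and 2 in each I13 library, too few for voom.

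**Figure D1:**
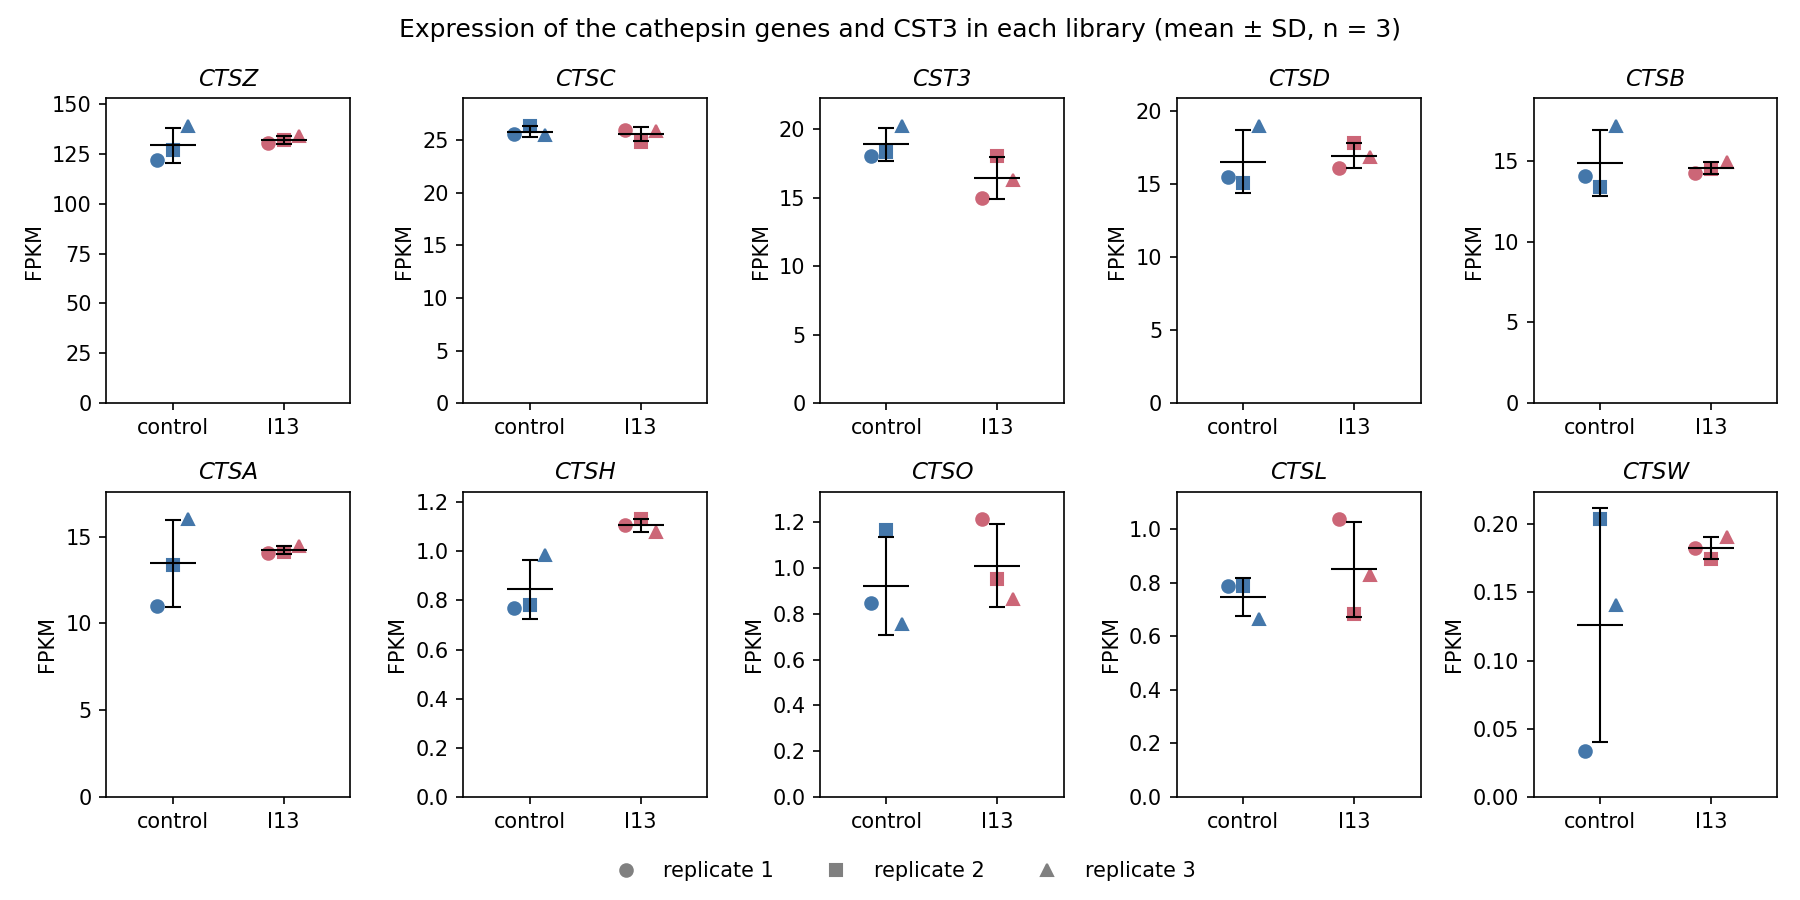
FPKM of each gene (vertical axis, from 0, with its own scale) in the 3 control and 3 I13 libraries, with replicates marked by symbol and the mean ± SD as a line with bars. CTSH is the gene with every I13 library (1.08 to 1.13 FPKM) above every control library (0.769 to 0.983 FPKM), and CST3 the gene with every I13 library below every control library.

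CTSZ, a carboxypeptidase of the papain family that removes single residues from the carboxyl end, was the most highly expressed of the 10 genes. CTSZ (ENSG00000101160, chr20:58995185-59007247, minus strand) was at 121.7, 126.9 and 139.1 FPKM in control replicates 1, 2 and 3 and at 130.2, 131.7 and 133.9 FPKM in I13 replicates 1, 2 and 3. The I13 values lay inside the range of the control values. The means were 129.2 ± 8.92 FPKM (SD, n = 3) and 132.0 ± 1.86 FPKM (SD, n = 3), which gave a log2 fold change of 0.033 ± 0.057 (standard error) and an adjusted p of 0.9996 by limma. Its 95% interval, from -0.10 to 0.17, held changes between 0.932-fold and 1.12-fold. CTSZ made up between 58.1% and 59.4% of the summed FPKM of the 10 genes in every library.

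CTSC, dipeptidyl peptidase I, varied least of the 10 genes within the control group. CTSC (ENSG00000109861, chr11:88293592-88337787, minus strand) was at 25.6, 26.3 and 25.4 FPKM in control replicates 1 to 3 and at 26.0, 24.8 and 25.8 FPKM in I13 replicates 1 to 3, so the groups overlapped. Its log2 fold change was -0.015 (standard error 0.046), and the 95% interval ran from 0.918-fold to 1.07-fold. The coefficient of variation was 1.88% in the control group, close to the 1.44% that counting alone gives at its mean of 4827 fragments.

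CTSB and CTSL are endopeptidases with a broad range of substrates. CTSB (ENSG00000164733, chr8:11842524-11869448, minus strand) was at 14.1, 13.4 and 17.2 FPKM in the control and at 14.2, 14.5 and 15.0 FPKM in the I13 libraries, giving a log2 fold change of -0.023 (standard error 0.095). Control replicate 3 held the highest value of CTSB, and the groups overlapped. CTSL (ENSG00000135047, chr9:87725519-87731393, plus strand) was lower, at 0.785, 0.788 and 0.663 FPKM in the control and 1.04, 0.684 and 0.830 FPKM in the I13 libraries. Only 26 to 39 fragments stood behind each value of CTSL, and the groups overlapped (log2 fold change 0.15, standard error 0.20). Its log2 fold change was 0.017 without I13 replicate 1, 0.082 without control replicate 3 and 0.28 without I13 replicate 2.

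CTSH is an aminopeptidase, and its I13 libraries were all above its control libraries. CTSH (ENSG00000103811, chr15:78921058-78949574, minus strand) was at 0.769, 0.781 and 0.983 FPKM in control replicates 1, 2 and 3, from 78 to 96 fragments. It was at 1.11, 1.13 and 1.08 FPKM in I13 replicates 1, 2 and 3, from 97 to 111 fragments. The means were 0.844 ± 0.121 and 1.11 ± 0.0261 FPKM (SD, n = 3 each), a difference of 30.9% (exact permutation test, two-sided, with the lowest p that 3 against 3 allow, 0.1). The log2 fold change was 0.36 ± 0.16 (SE, the standard error; adjusted p = 0.947 by limma). With each library left out the log2 fold change ranged from 0.30, without control replicate 1 (unadjusted p = 0.145 by limma), to 0.46, without control replicate 3 (unadjusted p = 0.0266). With a pseudocount of 1 it was 0.19. Among all genes tested, 4.88% had every I13 library above every control library, and CTSH was the 1 of these 10 that did.

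CTSO, a little-studied member of the papain family, and CTSW, which cytotoxic lymphocytes express, were at low levels. CTSO (ENSG00000256043, chr4:155924118-155953917, minus strand) was at 0.845, 1.16 and 0.756 FPKM in the control and 1.21, 0.954 and 0.864 FPKM in the I13 libraries, which overlapped. CTSW (ENSG00000172543, chr11:65879809-65883741, plus strand) had 1, 6 and 4 fragments in the control and 5 in each of the I13 libraries. Its fragments per depth were 1.45 times as many in the I13 group, with a 95% exact interval from 0.623 to 3.49 that covers counting error only. A change of CTSW was not detectable at this depth. Of the T and NK cell genes, CD3G, CD8B and KLRD1 were listed at 0 in the same libraries. CD8A, NKG7 and CD3D had means of 1.53, 0.633 and 0.236 FPKM, all above the mean of 0.154 FPKM of CTSW. The means of CD3E, CD5, GNLY, KLRF1 and NCR1 were above 0 but below that of CTSW, the highest being 0.0538 FPKM for NCR1.

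CTSD, the main aspartic protease of lysosomes, and CTSA, which also protects lysosomal galactosidase and neuraminidase in a complex, were at similar levels. CTSD (ENSG00000117984, chr11:1752752-1764573, minus strand) was at 15.5, 15.1 and 19.0 FPKM in the control and 16.2, 17.9 and 16.9 FPKM in the I13 libraries, giving a log2 fold change of 0.043 (standard error 0.095). CTSA (ENSG00000064601, chr20:45890144-45898820, plus strand) was at 11.01, 13.4 and 16.0 FPKM in the control and 14.05, 14.1 and 14.5 FPKM in the I13 libraries, giving a log2 fold change of 0.095 (standard error 0.13). For both genes the I13 libraries lay inside the range of the control libraries. The control libraries of CTSA had a coefficient of variation of 18.5%, against 1.65% in the I13 libraries and 2.74% from counting alone. CTSA shares 200 exon bases with PLTP, a phospholipid transfer gene on the other strand which ranged from 65.7 to 76.6 FPKM, and 1038 with NEURL2, also on the other strand, at a mean of 0.502 FPKM. Whether fragments were counted by strand is not given. CTSD shares 1304 of its 3126 exon bases with AC068580.4, a gene on the same strand at 0.00635 FPKM, and how fragments on shared bases were assigned is not given.

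CST3, which encodes cystatin C, an inhibitor of papain family cathepsins, was the gene whose I13 values all lay under its control values. CST3 (ENSG00000101439, chr20:23626706-23638473, minus strand) was at 18.1, 18.4 and 20.3 FPKM in control replicates 1, 2 and 3 and at 15.0, 18.1 and 16.3 FPKM in I13 replicates 1, 2 and 3. The gap was narrow, since the lowest control value (18.09 FPKM) and the highest I13 value (18.07 FPKM) differed by less than the counting error of 3.04%. The means were 18.9 ± 1.19 and 16.5 ± 1.55 FPKM (SD, n = 3 each; exact two-sided permutation p = 0.1, which is the lowest that can be reached). The log2 fold change was -0.20 (standard error 0.083, 95% interval -0.40 to -0.0059, unadjusted p = 0.0450 and adjusted p = 0.947 from limma). Of the 18726 genes tested, 2.59% had an unadjusted p under 0.05 and were lower with I13, and 2.55% were higher. For 4.64% of the genes every I13 library was below every control library. Leaving out control replicate 3 gave -0.15 with an unadjusted p of 0.146 by limma, and leaving out I13 replicate 1 gave -0.14 with 0.145. The unadjusted p was also above 0.05 when control replicate 1 (0.0633), control replicate 2 (0.0787) or I13 replicate 3 (0.114) was left out. By voom the unadjusted p was 0.0213 and the adjusted p 0.744. The summed FPKM of the 7 cysteine cathepsins among these 10 genes overlapped between groups, at 163.8 to 184.2 in control and 174.0 to 177.7 in I13 samples. Divided by the FPKM of CST3 it ranged from 9.06 to 9.24 in control and from 9.63 to 11.6 in I13 samples. This ratio contains the difference of CST3 given above and is not a separate result.

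**Figure D2:**
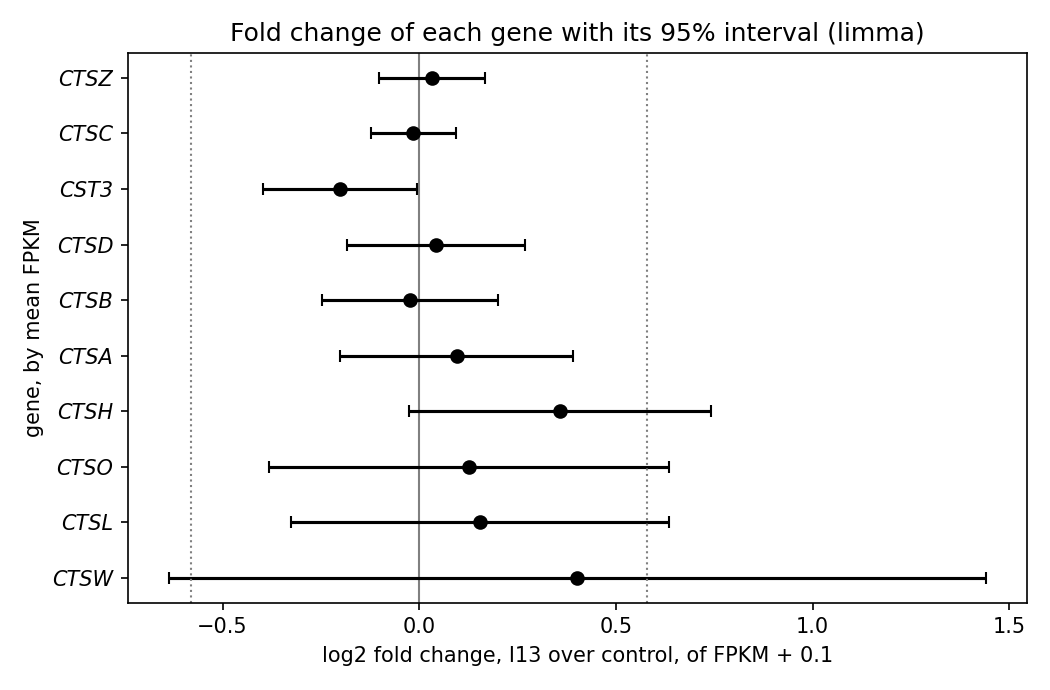
Log2 fold change of each gene, I13 over control, on the scale of log2(FPKM + 0.1) (horizontal axis), as points with 95% intervals from limma, 3 libraries against 3, with genes ordered by mean FPKM. The interval of CST3, from -0.40 to -0.0059, does not reach 0, and dotted lines mark the fold threshold of 0.58 in both directions.

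By mean FPKM over all 6 libraries the order was CTSZ, CTSC, CST3, CTSD, CTSB, CTSA, CTSH, CTSO, CTSL and CTSW, with 6 genes at 10 FPKM or more and 4 under 1 FPKM. The ranges of CST3, CTSD, CTSB and CTSA overlapped from neighbour to neighbour, as did those of CTSH, CTSO and CTSL. No overlap was seen between CTSZ and CTSC, between CTSC and CST3, between CTSA and CTSH, or between CTSL and CTSW. In total 9.52% of all genes tested had groups that did not overlap in either direction, beside 2 of these 10 genes.

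The order depends on the length by which fragments are divided. The FPKM values match the length of all annotated exons of a gene joined, which for CTSC is 11421 bases over 9 transcripts, while its principal protein-coding transcript (7 exons) has 1921 bases. For CTSZ the lengths are 2038 and 1495 bases. CTSC had 4511 to 5163 fragments per library and CTSZ 4171 to 4695, and CTSC had more than CTSZ in each library, by 1.03 to 1.18 times. Divided by the principal transcript, CTSC was at 153.3 ± 2.89 FPKM (SD, n = 3) in the control and 151.8 ± 3.93 FPKM (SD, n = 3) in the I13 libraries. CTSZ was then at 176.1 ± 12.2 and 179.9 ± 2.53 FPKM. CTSA moved from the sixth to the third place at 37.7 FPKM, and CST3, with a length ratio of 1.12, from the third to the sixth at 19.9 FPKM. The principal transcript was the protein-coding one with the best principal tag in the annotation, and the longest where several shared it. For CST3 it has 4 exons and 3286 bases. A shorter transcript would give a higher value, so these places hold for this choice only. Fragments on exons outside the principal transcript are counted in these values, so they are upper values for that transcript. The fold changes between groups do not depend on the length, apart from the pseudocount.

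**Figure D3:**
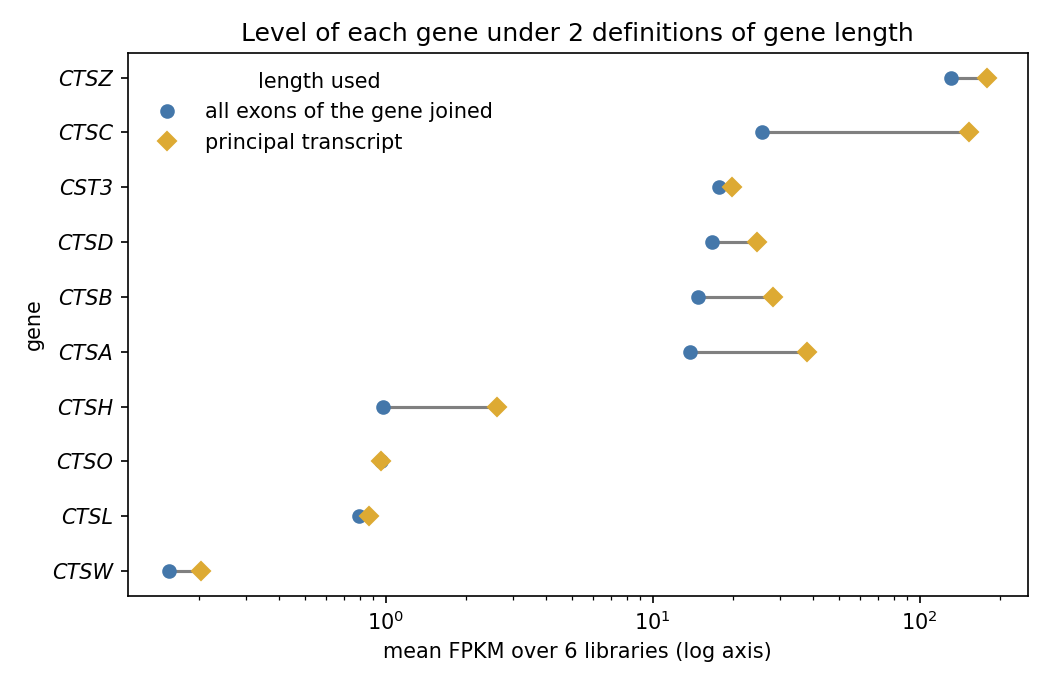
Mean FPKM over the 6 libraries (horizontal log axis) for each gene, with the length of all exons joined (circles) and of the principal transcript (diamonds). CTSC shifts by a ratio of 5.95 and CTSO, with 1 transcript, by 1.00.

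CTSA, CTSB, CTSD, CTSZ and CST3 all had their highest value in control replicate 3. This library belongs to the pair that stood apart. Over the 6 libraries, Pearson's r between the log2 values of CTSZ and CTSA was 0.967 (Spearman's rho 1.00), between CTSD and CTSB 0.891 and between CTSZ and CTSD 0.866, while CTSC had an r between -0.676 and -0.131 with these 4 genes. These coefficients describe 6 libraries that share 2 conditions and the library pair. Among the 4132 other genes that averaged 10 FPKM or more, the 3 most like CTSD were SYNGR2 (r = 0.994), UBB (0.991) and RNASEH2A (0.989).

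The pair was chosen from the first principal component of these same libraries. Without it the groups are smaller, and smaller groups separate more often over all genes tested. With all 6 libraries 9.52% of all genes tested did not overlap, so the counts below are given beside the shares for the 4 libraries. Every I13 library of the other 4 was above every control library for 6 of the 10 genes (CTSZ, CTSD, CTSB, CTSA, CTSH and CTSL) and below for 1 (CST3), against 21% above and 16.9% below over all genes tested. Within the pair, I13 replicate 2 was below control replicate 3 for 4 of these 6 genes (CTSZ, CTSD, CTSB and CTSA), and 10.7% of all genes tested were higher in the 4 libraries and lower within the pair. For CTSA the log2 fold change came to 0.23 for the 4 libraries and -0.18 for the pair. For CTSB the values were 0.087 and -0.24, for CTSD 0.11 and -0.091, and for CTSZ 0.088 and -0.078. CST3 kept its direction, with -0.22 and -0.16, and so did CTSH, with 0.45 and 0.18. The values were -0.0028 and -0.038 for CTSC, 0.21 and 0.039 for CTSL, 0.041 and 0.30 for CTSO, and 0.51 and 0.19 for CTSW. With a term for the pair in the fit of all 6 libraries, the unadjusted p from limma was 0.00486 for CST3 and 0.0561 for CTSH, and neither passed the adjustment. In that fit 1427 of the 18726 genes tested had an unadjusted p under 0.05, against 963 without the term. Because the term was chosen from the same values, its p-values can be too small. The part of the library pair in these differences was not tested.

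**Figure D4:**
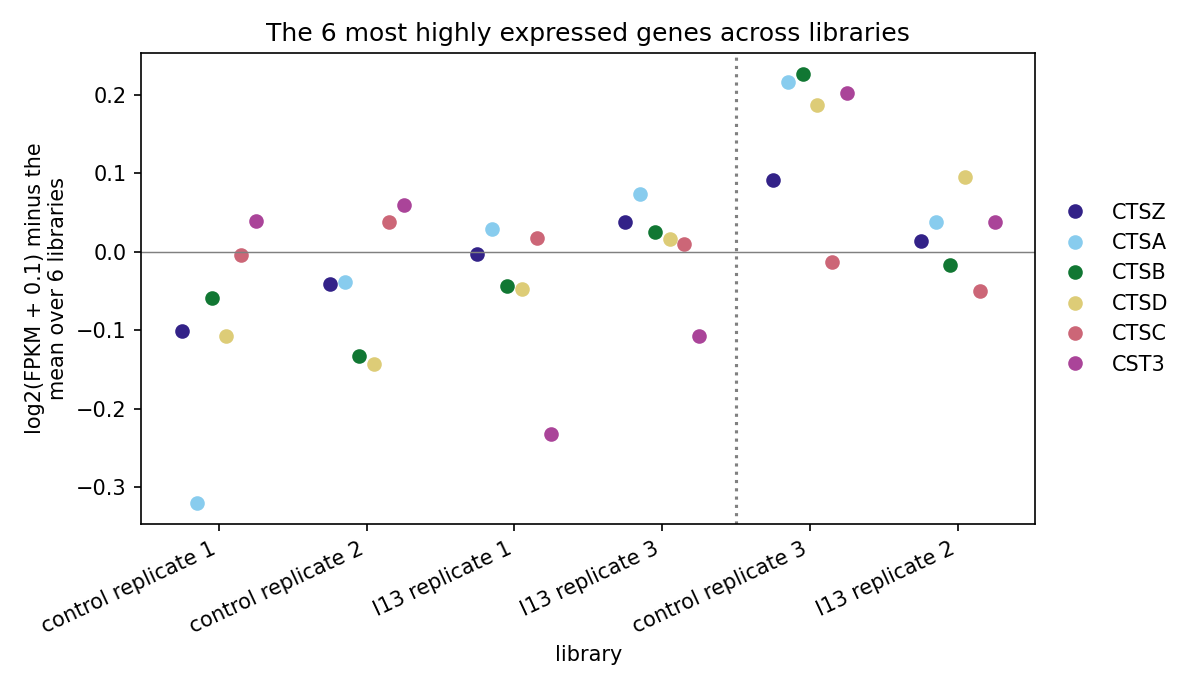
Log2(FPKM + 0.1) of the 6 most highly expressed genes, as the difference from each gene's mean over 6 libraries (vertical axis), by library, with control replicate 3 and I13 replicate 2, the pair, right of the dotted line. CTSA, CTSB, CTSD, CTSZ and CST3 are highest in control replicate 3.

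Among the cathepsin genes outside the list of 10, CTSF was at a higher level and CTSG and CTSK at a lower level in every I13 library. Of 6 genes (CTSE, CTSF, CTSG, CTSK, CTSS and CTSV), 5 were tested, and 3 had an unadjusted p under 0.05 by limma, 1 higher and 2 lower with I13. The share of all genes tested at that p was 5.14%, and 9.52% had groups that did not overlap. The lowest adjusted p of the 3 was 0.321 by limma, for CTSF, and 0.114 by voom, so none was called. CTSF, a papain family cysteine protease, was at 11.3 ± 0.328 FPKM (SD, n = 3) in the control and 14.5 ± 0.491 FPKM (SD, n = 3) in the I13 libraries, with no overlap. Its log2 fold change of 0.37 ± 0.055 (SE; adjusted p = 0.321 by limma) ranged from 0.34 to 0.38 under the 18 alternatives, with 0.34 for the 4 libraries and 0.41 for the pair. CTSG, a serine protease of azurophil granules, was at 192.2 ± 7.07 FPKM (SD, n = 3) in the control and 157.8 ± 14.3 FPKM (SD, n = 3) in the I13 libraries, with no overlap. Its log2 fold change was -0.29 ± 0.071 (SE; adjusted p = 0.742), with -0.39 within the 4 libraries and -0.084 within the pair. CTSK, which degrades collagen, was at 1.81 ± 0.110 and 1.34 ± 0.0967 FPKM with a log2 fold change of -0.41 ± 0.12 (SE; adjusted p = 0.875), and its unadjusted p by voom was 0.0599. Each value of CTSK came from 39 to 62 fragments. CTSS, a cysteine protease that trims the class II invariant chain, was at 7.42 ± 0.432 and 8.24 ± 1.02 FPKM and overlapped between groups. The log2 fold change of CTSS was 0.14, with 0.28 for the 4 libraries (unadjusted p = 0.0249 by limma) and -0.13 for the pair.

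The granule proteases that CTSC activates include PRTN3 and ELANE, both at high levels. Of 13 granule serine protease genes on the list, 11 were in the table and 7 were tested. By limma 0 were higher and 1, CTSG, was lower at an unadjusted p under 0.05, and the median log2 fold change was -0.11. CMA1, mast cell chymase, which was picked out after its value was seen, had the 1 log2 fold change above 0, 0.67 (unadjusted p = 0.114 by limma), with every I13 library above every control library. PRTN3, proteinase 3, was at 3256 ± 111.6 FPKM (SD, n = 3) in the control and 3019 ± 416.3 FPKM (SD, n = 3) in the I13 libraries, and ELANE, neutrophil elastase, was at 2446 ± 176.2 and 2389 ± 217.9 FPKM. AZU1 and PRSS57 had log2 fold changes of -0.11 (standard error 0.065) and -0.08 (standard error 0.076). GZMB, a granzyme of cytotoxic lymphocytes, was listed at 0. The summed FPKM of the list ranged from 7461 to 7719 in control and from 6704 to 8069 in I13 samples, beside the 95% interval of CTSC from -0.12 to 0.094 on the log2 scale.

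Of the other cystatins 3 were tested, and 0 had an unadjusted p under 0.05 by limma. CSTB was at 13.1 ± 1.18 FPKM in the control and 12.4 ± 1.22 FPKM in the I13 libraries (SD, n = 3 each), and CSTA was at 8.92 ± 1.09 and 7.93 ± 0.569 FPKM. CST7, cystatin F, was at 1.71 ± 0.716 FPKM in the control and 1.03 ± 0.0213 FPKM in the I13 libraries, a log2 difference of -0.60 (standard error 0.27) with an adjusted p of 0.947 by limma and no overlap. Few fragments stood behind CST7, 18, 40 and 23 in control replicates 1, 2 and 3 and 15, 16 and 15 in the I13 libraries. All 3 log2 fold changes were below 0, as was that of CST3, beside 9024 of the 18726 genes tested. CSTA and CSTB overlapped between groups. CST6 was listed at 0 in every library, and the other 7 genes of this list were not analysed here.

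The other lysosomal lists had median log2 fold changes from -0.013 to 0.034, and 0 of their genes were called by limma at an adjusted p. Of 30 glycosidase, sulfatase and lipase genes tested, 15 had positive and 15 negative log2 fold changes, with a median of -0.004, and 1, PPT1, passed an unadjusted p under 0.05. PPT1, a palmitoyl thioesterase, was at 55.0 ± 0.958 FPKM in the control and 60.3 ± 2.92 FPKM in the I13 libraries (SD, n = 3 each; adjusted p = 0.947). The most highly expressed of this list was GAA, acid alpha-glucosidase, at 88.3 ± 4.76 and 90.6 ± 5.91 FPKM. Of 20 activator and membrane protein genes, 0 passed by limma, led in level by PSAP, the saposin precursor, at 361.6 ± 20.2 and 378.0 ± 12.2 FPKM. Of 6 other lysosomal peptidases 1 passed, NAAA, an acid amidase, which was at 6.03 ± 0.515 FPKM in the control and 4.76 ± 0.465 FPKM in the I13 libraries (log2 fold change -0.34, adjusted p = 0.875). Within the 4 libraries the unadjusted p by limma was 0.0705 for NAAA and 0.0758 for PPT1, and by voom that of PPT1 was 0.0560. DPP7, a dipeptidyl peptidase, led that list at 75.6 ± 4.50 and 78.1 ± 5.67 FPKM.

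For 13 of 16 vacuolar ATPase subunits tested the log2 fold change was above 0, beside 9702 of the 18726 genes tested. The median of the subunits was 0.034, and none was higher at an unadjusted p under 0.05. TCIRG1, a subunit of the membrane sector, passed it on the lower side (12.8 ± 0.990 and 11.1 ± 0.930 FPKM, log2 fold change -0.20). ATP6V1G1 was the most highly expressed subunit, at 55.7 ± 1.22 and 58.2 ± 3.17 FPKM. Among 17 sorting genes, the cation-dependent mannose 6-phosphate receptor M6PR was at 61.1 ± 1.33 and 62.5 ± 3.56 FPKM, and SORL1, a sorting receptor, was the 1 gene past an unadjusted p under 0.05 (log2 fold change -0.19, adjusted p = 0.947 from limma). Among 14 MiT factors and lysosome regulators, RRAGA, a GTPase that recruits mTOR to the lysosome, was the 1 gene past it, with a log2 fold change of -0.14 (adjusted p = 0.947 by limma). For RRAGA the unadjusted p was 0.193 by voom, and 0.0714 within the 4 libraries with a log2 fold change of -0.091, against -0.25 within the pair. LAMTOR4, a subunit of its lysosomal anchor, was at 21.3 ± 0.545 and 22.2 ± 2.89 FPKM, and its log2 fold change of 0.054 became -0.056 within the 4 libraries.

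**Figure D5:**
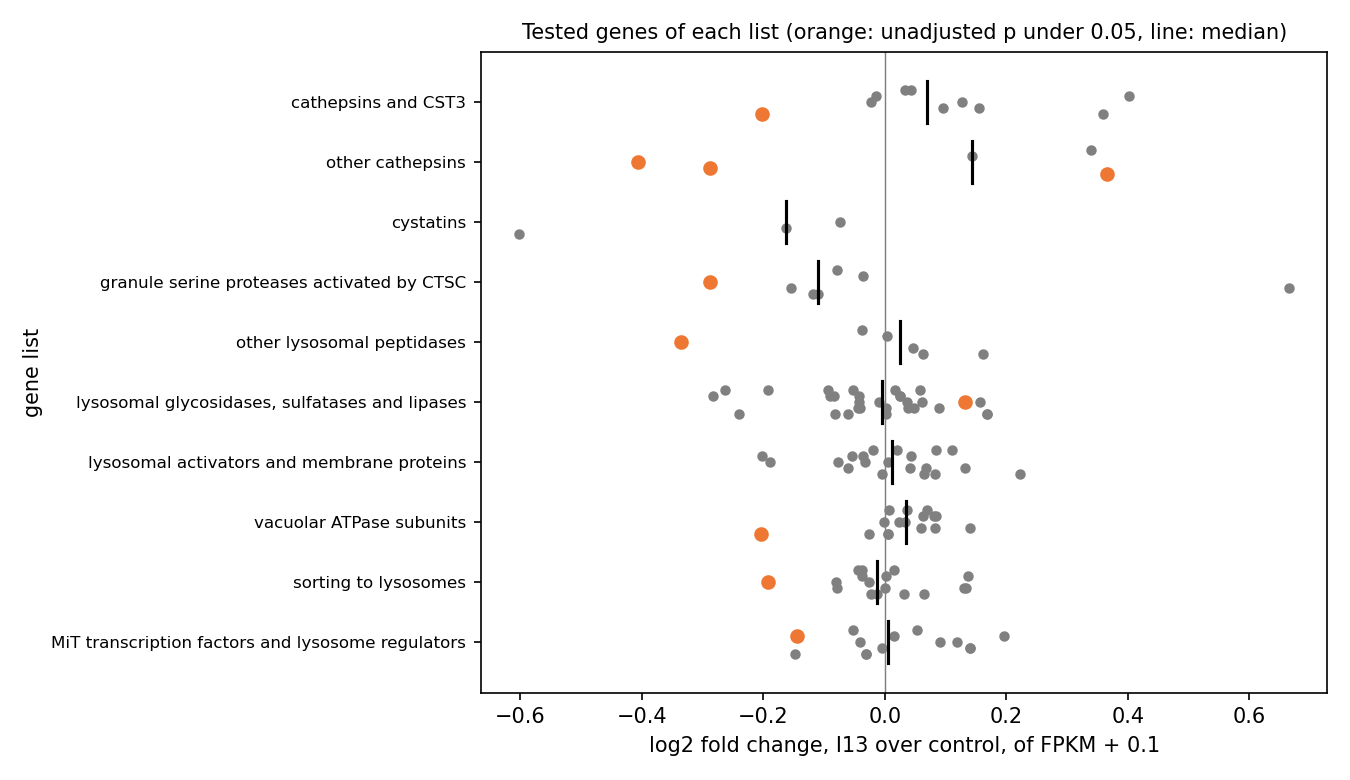
Log2 fold change, I13 over control, on the scale of log2(FPKM + 0.1) (horizontal axis), of every tested gene in each list, with orange points for an unadjusted p under 0.05 by limma and a line at the median. CTSG stands in 2 lists, and the medians of the lists lie between -0.16 for the cystatins and 0.14 for the other cathepsins.

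The study compared the conditions to learn which genes accompany differentiation of Kasumi-1 cells. Of the myeloid surface genes, ANPEP was at 24.0 ± 2.06 FPKM in the control and 30.6 ± 1.47 FPKM in the I13 libraries (log2 fold change 0.35, adjusted p = 0.540 from limma). CD33 was at 11.5 ± 0.613 and 13.2 ± 0.483 FPKM (log2 fold change 0.20, adjusted p = 0.890). The log2 fold change was 0.14 for CD34, -0.063 for KIT, -0.12 for MPO and -0.029 for RUNX1T1, each with groups that overlapped. Of the 6 markers of myeloid blasts, 3 were thus above 0 and 3 below. CSF1R, the receptor for macrophage colony-stimulating factor, was at 6.66 ± 0.458 and 4.84 ± 0.496 FPKM (log2 fold change -0.46, adjusted p = 0.583). The summed FPKM of 6 monocyte markers ranged from 6.20 to 7.02 in control and from 4.28 to 5.21 in I13 samples. Nearly all of this sum was CSF1R, at 6.13 to 6.97 FPKM in control and 4.27 to 5.17 FPKM in I13 samples. MRC1 and VCAN had means of 0.0227 and 0.00424 FPKM over all libraries. The part of these markers in the values above was not tested. The monocyte genes FCGR3A and CD163 were listed at 0, and CD14 had a mean of 0 FPKM in the control and 0.0116 FPKM in the I13 libraries. Fewer cells of a state and less RNA per cell cannot be told apart in such bulk libraries.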

How the data were processed

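The 6 mRNA libraries of Kasumi-1 cells, 3 control and 3 I13, were grouped by their titles. The authors deposited FPKM per gene and library from stranded mRNA libraries. The submitters' processing notes name Trimmomatic, HISAT2, Cufflinks, HTSeq and hg38, without roles or versions, and the annotation is not given in the sources used here. FPKM was used without further scaling. Fragments were recovered with joined exon lengths of GENCODE release 29 (GRCh38), which gave whole fragments within a tolerance of 0.01 in all 6 libraries for 95.4% of 27002 genes, all 10 members among them. Precision follows the number of fragments, which ranged from 15281052 to 17221345 per library.

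Log2(FPKM + 0.1) was fitted with limma 3.58.1 (R 4.3.3), with a variance trend, no block and a minimum mean of 0.1 FPKM over all libraries. Voom took the recovered fragments, for 12964 genes averaging 10 or more. Both were tested on simulated data. Other values were computed in Python 3.11.15 with scipy 1.17.1. Alternatives were other pseudocounts, filters and scalings, no trend, robust variances, a replicate block, a term for the library pair, its removal, each library left out, and voom. The transcript length as an alternative was added after the values were seen.

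The members and lists were chosen with earlier results of these data known. Named were all members, the other cathepsins and cystatins, list genes with an unadjusted p under 0.05, the most abundant gene of each list, abundant granule proteases and the 3 genes most like CTSD.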

Additional observations from a re-analysis of the deposited data

How the results depend on the processing

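None of the 10 genes passed the adjusted p under any of 18 alternatives, where the smallest adjusted p was 0.502 for CST3 with the term for the library pair. Of 175 alternative values of the members, 156 kept their direction and their side of an unadjusted p of 0.05. The count of members at that p was 1. It was 0 under median scaling, 0 with the replicate block, 2 by voom, and between 0 and 1 when each library was left out. It fell to 0 without control replicate 1, without control replicate 2, and likewise for I13 replicate 1 and I13 replicate 3. Without control replicate 3 the 1 gene was CTSH in place of CST3. The same held in the limma fit with no trend, with an unadjusted p of 0.0203 for CTSH and 0.1002 for CST3. Reversals met genes with a fold change near 0. With each library left out, the log2 fold change of CTSA ranged from -0.041 to 0.23, of CTSB from -0.095 to 0.084, of CTSC from -0.027 to 0.0070, of CTSD from -0.018 to 0.15 and of CTSZ from -0.0094 to 0.09. The range was 0.017 to 0.28 for CTSL, 0.00046 to 0.29 for CTSO and 0.064 to 0.65 for CTSW, each above 0. The removal of control replicate 1 (CTSA, CTSD, CTSZ), control replicate 2 (CTSC, CTSD), control replicate 3 (CTSB) and I13 replicate 2 (CTSC) turned the sign, and CTSB was at 0.087 within the 4 libraries. Over all genes, the number called was 0 by limma, 9 without the trend and 6 by voom. The number at an unadjusted p under 0.05 was 963, against 582 at a minimum mean of 1 FPKM, which leaves CTSH, CTSO, CTSL and CTSW untested, and 1607 within the 4 libraries. Apart from the smaller number tested at 1 FPKM, the cause was not tested.

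No label says whether the replicate numbers pair the libraries. Deviations of same-numbered libraries from their group means correlated at 0.32, -0.38 and -0.30. Control replicate 1 correlated best with I13 replicate 1 (0.32), control replicate 2 with I13 replicate 3 (0.30) and control replicate 3 with I13 replicate 2 (0.51). Deviations from a mean of 3 libraries are tied to each other, so these values do not settle the pairing. The result with the replicate block is given in this section only. Depth limits CTSW most, with 1 to 6 fragments per library.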
